A study of Homo sapiens with 16 samples.

Results

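The genes *SPI1*, *IRF8*, *KLF4*, *EGR1*, *EGR2*, *NR4A1*, *GFI1* and *ID2* encode transcription factors that steer myeloid progenitors towards the monocyte or the granulocyte fate. These 8 genes were chosen by name from the 60623 genes in the count files, with the C/EBP family left aside, and each was present in all 16 libraries. All 8 passed the filter on low counts in both experiments, and each had at least 14 counts in every library. In the deposited coordinates, with hg38 and GRCh38 named as builds in the processing notes, *SPI1* (ENSG00000066336) lies at chr11:47354860-47378576 on the minus strand and *IRF8* (ENSG00000140968) at chr16:85899162-85922606 on the plus strand. *KLF4* (ENSG00000136826) lies at chr9:107484852-107490482 and *GFI1* (ENSG00000162676) at chr1:92473043-92486925, both on the minus strand. *EGR1* (ENSG00000120738) lies at chr5:138465479-138469303 on the plus strand and *EGR2* (ENSG00000122877) at chr10:62811996-62919900 on the minus strand. *NR4A1* (ENSG00000123358) lies at chr12:52022832-52059507 and *ID2* (ENSG00000115738) at chr2:8678845-8684461, both on the plus strand. These are whole-gene spans, and counts were summed per gene.

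RNA-Seq was performed in MUTZ-3, an established acute myeloid leukemia (AML) line in which a chromosome 3 inversion places *EVI1*, listed as MECOM, under the control of a *GATA2* enhancer. The design compares MUTZ-3 cells after PARP inhibition (PARPi) and after *EVI1* knockdown with their controls.

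PARPi was studied with 10 libraries. They comprise an untreated culture (0 h) and cultures kept for 12, 24 or 48 h with DMSO as vehicle, with olaparib at 10 µM or with talazoparib at 1 µM. The concentrations of the inhibitors thus differ, and a difference between them is one of compound and concentration together. *EVI1* knockdown was studied with 6 libraries, made of cells transduced with the lentiviral vector pLKO.1 carrying a non-targeting control shRNA (NTC), shEVI1-2531 or shEVI1-2532, selected with puromycin and harvested at day 3 or day 6. All cultures, controls included, received GM-CSF and medium conditioned by another cell line, so myeloid growth factors were present throughout. Each condition was sequenced once from 1 cell line. The time points or days therefore served as blocks in the tests, and an error is the departure of time points or days from one another, not a spread between replicate cultures.

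SPI1, also known as PU.1, is the ETS factor that opens the myeloid program, and IRF8 and KLF4 act with it or downstream of it in monocyte formation. GFI1 is a zinc finger repressor that favors granulocytes and opposes monocyte genes, while EGR1 and EGR2 are zinc finger activators that favor macrophages and repress granulocyte genes. NR4A1 is an orphan nuclear receptor needed for patrolling monocytes, and ID2 is a helix-loop-helix protein without a DNA-binding domain that holds E proteins such as TCF3 in inactive dimers. *EGR1*, *EGR2* and *NR4A1* are also immediate early genes, which signaling switches on within minutes without new protein synthesis. Serum response factor does this in many such genes through CArG boxes in their promoters.

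RefSeq promoter windows, 250 bases before to 50 bases after a start site in GRCh38.p14, were found for 7 of the 8 genes, 13 windows in all. *SPI1* had none. CArG boxes were searched on both strands, and 1.29% of 35116 windows hold one. The window of *EGR1* has 2 CArG boxes and 1 window of *EGR2* has 1. The 150 bases before each of these start sites are shown because they carry the element by which immediate early genes are known, with the CArG boxes in capitals.
EGR1, chr5:138465329-138465478, plus strand: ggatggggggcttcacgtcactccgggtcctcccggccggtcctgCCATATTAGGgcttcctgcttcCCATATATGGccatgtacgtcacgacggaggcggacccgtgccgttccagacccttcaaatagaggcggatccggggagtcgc
EGR2, chr10:62816367-62816516, minus strand: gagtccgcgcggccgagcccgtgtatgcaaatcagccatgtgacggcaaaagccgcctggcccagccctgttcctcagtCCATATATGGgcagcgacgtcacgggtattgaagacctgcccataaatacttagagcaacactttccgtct
The boxes lie at bases -105 to -96 and -83 to -74 of *EGR1* and at -71 to -62 of *EGR2*, counted back from the start site. The window of *KLF4* holds 2 copies of the Sp1 box GGGGCGGGG, which 15.7% of windows hold, and both windows of *IRF8* hold the same copy of the E box CACCTG, which 20.6% hold. The other 2 windows of *EGR2* hold Sp1 boxes as well, with 2 of the 3 copies overlapping each other. The search also covered the cAMP response element TGACGTCA (1.85% of windows), the EGR site GCGTGGGCG (0.795%), the NR4A site AAAGGTCA (1.22%), the PU box GAGGAAGT (2.59%) and the TATA box TATAAA (11.5%), none of which was in any of the 13 windows. The windows of *GFI1*, *NR4A1* and *ID2* held no match to any motif searched, which says only that these letters are not in these windows.

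Total counts per library were 55999673 to 72681943 for PARPi and 95523038 to 120716213 for knockdown, and 3 counts corresponded to 0.0249 to 0.0536 CPM. Levels are given as CPM, the usual unit for counts relative to library size, here with TMM-scaled library sizes. The markers CD34, KIT, GATA2, MPO and CD33 were present in the DMSO and NTC libraries, whereas FLT3 and PROM1 stayed at or below 0.565 CPM in all libraries. *EVI1* fell to 32.4% and 47.1% of NTC with shEVI1-2531 at days 3 and 6 and to 12.7% and 11.6% with shEVI1-2532. The files of shEVI1-2531 carry another shRNA number in their names, and its name is used here as the labels give it. Since these are bulk libraries of a culture that can hold cells at several stages, a change in the share of cells and a change in RNA per cell cannot be told apart.

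Scaled by exon length, *SPI1* was the most abundant of the 8 genes at 92.8 to 141 CPM per kb in the DMSO libraries, followed by *GFI1* at 49.8 to 56.9 and *ID2* at 8.38 to 17.3. *EGR1* reached 1.29 to 1.91 CPM per kb and *IRF8* 0.703 to 1.01. *KLF4* at 0.138 to 0.261, *NR4A1* at 0.155 to 0.195 and *EGR2* at 0.0558 to 0.161 CPM per kb formed the bottom of the order, and their ranges over the DMSO libraries overlapped. In the NTC libraries, *EGR1* at 0.669 and 1.20 CPM per kb overlapped *IRF8* at 0.846 and 1.69, and *KLF4* overlapped *EGR2*, while the other steps of the order did not overlap. Lengths were taken from GENCODE 29 exons.

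The untreated library stood apart from the DMSO libraries in several of these genes before any inhibitor was given. *NR4A1* was at 23.6 CPM in untreated cells and at 1.13, 1.19 and 1.42 CPM with DMSO at 12, 24 and 48 h. *ID2* was at 134 CPM against 38.1, 34.8 and 18.5, and *EGR2* at 2.44 CPM against 0.206, 0.252 and 0.595. *KLF4* at 2.16 CPM was also over 2-fold higher in untreated cells than in every DMSO library. Other immediate early genes moved alike: 21 of 27 listed were over 2-fold higher in untreated cells than in each DMSO library, compared with 2.45% of all genes tested. FOSB, a partner of JUN in AP-1, was at 124 CPM untreated and at most 0.647 CPM with DMSO. Neither *GFI1* nor *IRF8* followed, with 112 and 2.45 CPM untreated and 164 to 188 and 3.63 to 5.22 CPM with DMSO. The untreated library was therefore not used as a control, and what separates it from the DMSO libraries was not tested.

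**Figure D1:**
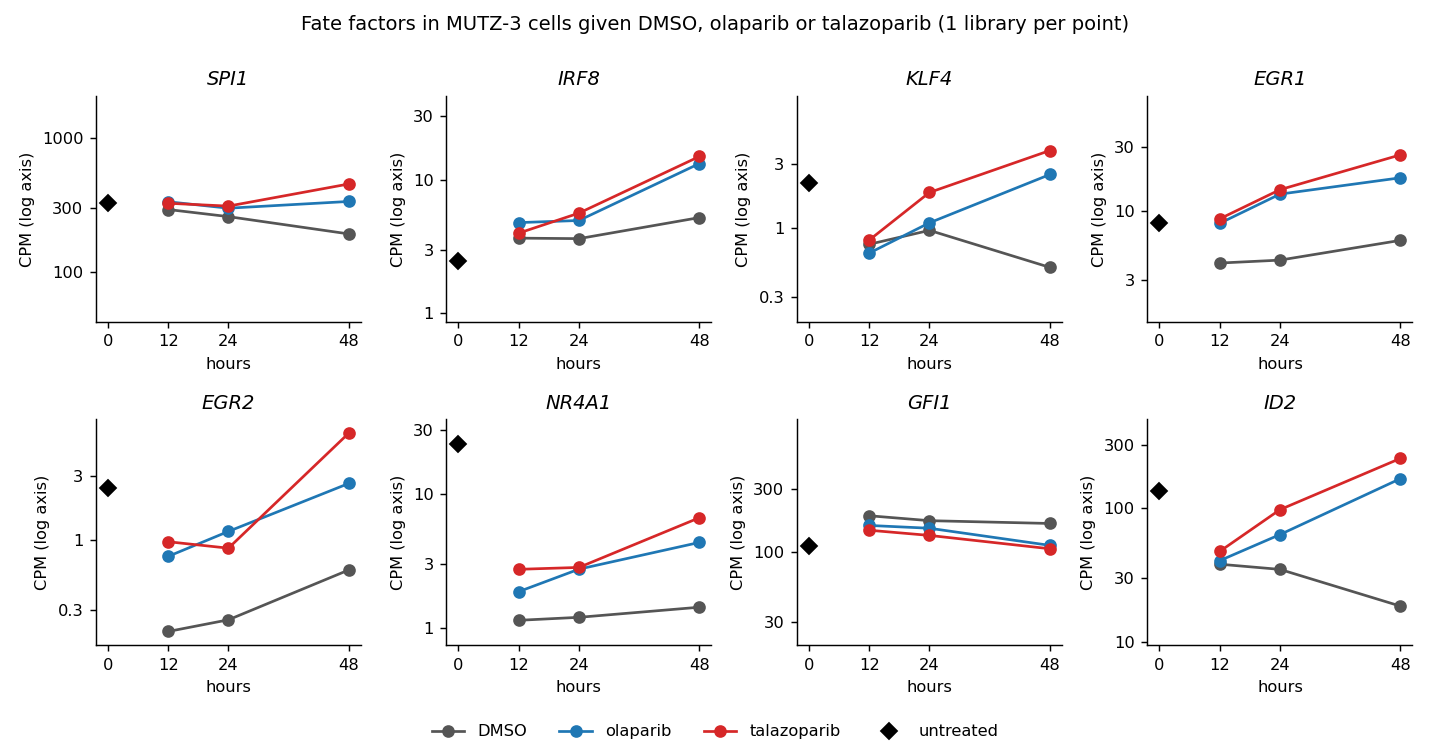
Level of each gene in CPM (log axis, the same fold range in every panel) against hours in untreated cells and in cells given DMSO, olaparib or talazoparib, with 1 library per point. Both inhibitors lie above DMSO at every hour for EGR1, EGR2, NR4A1, SPI1, IRF8 and ID2 and below it for GFI1, and the untreated library lies far above DMSO for NR4A1, EGR2 and ID2.

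After PARPi, *EGR1*, *EGR2* and *NR4A1* rose as the mean of both inhibitors over the 3 time points, by log2 fold changes of 1.52, 2.36 and 1.37, and no other gene of the 8 passed the test. These 3 of 8 compare with 4.17% of 17218 genes called. The median log2 fold change of the 8 was 1.15, beside -0.01 over all genes tested. The treated and DMSO libraries did not overlap for 6 of the 8, namely *SPI1*, *EGR1*, *EGR2*, *NR4A1*, *ID2* and *GFI1*, which was the case for 14.7% of all genes. The calls depended on single libraries, and so did those over all genes. None of the 3 was called without the DMSO, the olaparib or the talazoparib library of 24 h, without the olaparib library of 48 h, or without an hour term. Genes called in these settings were 11 of 17037, 9 of 17052, 6 of 17070, 27 of 17035 and 16 of 17218, in that order. The log2 fold change of *EGR1* was 1.43 to 1.61 in them. Without the olaparib library of 12 h only *EGR1* of the 8 was called, beside 69 of 17111 genes. Without the talazoparib library of 12 h 6 of the 8 were called, beside 3324 of 17031 genes. Without the DMSO library of 12 h 7 of the 8 were called, beside 4720 of 17095 genes. All 8 were called when slopes on time were added, beside 6804 of 17218 genes. That fit estimated 1 spread for all genes, so its p-values do not carry the spread of each gene.

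*EGR1* was at 4.04, 4.25 and 5.98 CPM with DMSO at 12, 24 and 48 h. It was at 8.02, 13.3 and 17.6 CPM with olaparib and at 8.67, 14.3 and 26.1 CPM with talazoparib. All 6 treated libraries lay above all 3 DMSO libraries. Untreated cells were at 8.06 CPM, close to both inhibitor libraries of 12 h. The mean log2 fold change was 1.52 ± 0.18 (SE, adjusted p = 0.0131, edgeR), and *EGR1* was the only one of the 8 called for olaparib alone (1.38 ± 0.20, adjusted p = 0.0321), where 0.639% of genes were called. Leaving out the olaparib library of 12 h or any library of 24 h ended that call, as did leaving out the olaparib library of 48 h. At most 9 of all genes were called for olaparib in any of these settings.

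*EGR2*, a close relative of *EGR1*, showed the highest mean log2 fold change of the 8, from low counts. It was at 0.206, 0.252 and 0.595 CPM with DMSO, from 14, 19 and 39 counts. It was at 0.752, 1.16 and 2.65 CPM with olaparib and at 0.968, 0.866 and 6.31 CPM with talazoparib. The talazoparib library of 48 h stood well above the rest at 10.6 times its DMSO control, with a log2 ratio of 3.41 and a 95% interval of 2.92 to 3.93 that covers counting error only. Averaged over hours and inhibitors, the log2 fold change was 2.36 ± 0.34 (SE, adjusted p = 0.0196).

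*NR4A1* was at 1.13, 1.19 and 1.42 CPM with DMSO. It was at 1.86, 2.74 and 4.34 CPM with olaparib and at 2.73, 2.82 and 6.64 CPM with talazoparib. No treated library reached the 23.6 CPM of untreated cells, although all 6 were above DMSO. Its mean log2 fold change was 1.37 ± 0.22 (SE, adjusted p = 0.0263). For talazoparib alone, *EGR1*, *EGR2* and *NR4A1* were called, 3 of 8 against 4% of genes, with log2 fold changes of 1.66, 2.60 and 1.58.

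*ID2* was at 38.1, 34.8 and 18.5 CPM with DMSO at 12, 24 and 48 h. With olaparib it was at 40.5, 63.5 and 166 CPM and with talazoparib at 47.5, 97.5 and 236 CPM. At 12 h the treated libraries were within 1.25 times DMSO, and at 48 h they were 9.01 and 12.8 times as high. The DMSO library of 48 h was itself lower than that of 24 h, at 53.0% of it, so the ratios at 48 h are taken to a lower control. The mean log2 fold change of 1.37 ± 0.51 (SE) missed the threshold with an adjusted p of 0.102.

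The distance between inhibitor and DMSO grew with time in 5 of the 8 genes, against 19.8% of all genes called in either direction. The slope, as log2 fold change per doubling of time, was 1.61 ± 0.14 for *ID2* (adjusted p = 3.2e-27), 1.33 ± 0.26 for *KLF4* (adjusted p = 5.7e-06), 0.59 ± 0.16 for *IRF8* (adjusted p = 0.00218), 0.43 ± 0.13 for *SPI1* (adjusted p = 0.0106) and 0.40 ± 0.15 for *EGR1* (adjusted p = 0.0401). In this fit edgeR estimated 1 spread for all genes, so these p-values do not carry the spread of each gene. Without the DMSO library of 48 h only *ID2* stayed called, and without the olaparib library of 48 h *ID2* and *KLF4* did. Of all genes, 258 of 17050 and 1208 of 17035 were called in these settings, in that order. The calls of *SPI1* and *EGR1* were also lost without the DMSO library of 12 h, the olaparib library of 12 h or the talazoparib library of 48 h, and with scaling to library totals. *EGR1* was called in 5 of 15 settings tried and *ID2* in 15 of 15.

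Single DMSO libraries also moved the sizes of these slopes. Without the DMSO library of 48 h the slope was 0.974 for *ID2*, 0.634 for *KLF4*, 0.287 for *IRF8*, 0.062 for *SPI1* and 0.653 for *EGR1*. Without the DMSO library of 12 h it was 2.035 for *KLF4*, 0.891 for *IRF8*, 0.791 for *SPI1* and 0.145 for *EGR1*, and without the olaparib library of 12 h it was 0.251 for *EGR1*. The slopes of *SPI1*, *IRF8* and *KLF4* were thus lower without the DMSO library of 48 h and higher without that of 12 h.

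*SPI1* was at 293, 259 and 192 CPM with DMSO, beside 329 CPM in untreated cells. It was at 334, 299 and 336 CPM with olaparib and at 326, 310 and 455 CPM with talazoparib. The olaparib libraries thus stayed close to the untreated level while the DMSO libraries were below it, and only the talazoparib library of 48 h lay clearly above it. On average the log2 fold change was 0.46 ± 0.18 (SE, adjusted p = 0.105), which did not pass the test.

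*IRF8*, the interferon regulatory factor that commits progenitors to monocytes and dendritic cells, was at 3.66, 3.63 and 5.22 CPM with DMSO. It was at 4.79, 4.96 and 13.3 CPM with olaparib and at 3.99, 5.64 and 15.0 CPM with talazoparib. At 12 and 24 h only the talazoparib library of 24 h was above all DMSO libraries, and at 48 h the treated libraries were 2.54 and 2.87 times DMSO. The mean log2 fold change was 0.73 ± 0.22 (SE, adjusted p = 0.0703).

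*KLF4*, which drives monocyte differentiation when expressed in progenitors, was at 0.750, 0.954 and 0.504 CPM with DMSO, from 51, 72 and 33 counts. It was at 0.644, 1.09 and 2.50 CPM with olaparib and at 0.806, 1.83 and 3.78 CPM with talazoparib. At 12 h neither inhibitor library could be separated from DMSO within counting error, with 95% intervals of the log2 ratio of -0.84 to 0.40 and -0.46 to 0.67. At 48 h the libraries were 4.96 and 7.51 times DMSO, and the mean log2 fold change was 0.93 ± 0.44 (SE, adjusted p = 0.164).

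*GFI1* was the only one of the 8 that was lower in the inhibitor libraries. It was at 188, 172 and 164 CPM with DMSO. It was at 159, 151 and 113 CPM with olaparib and at 146, 134 and 106 CPM with talazoparib. All 6 treated libraries were below the lowest DMSO library, by 0.19 to 0.63 on the log2 scale against their own controls. The mean log2 fold change was -0.39 ± 0.10 (SE), and the adjusted p of 0.0522 lay just outside the threshold. It was called in 5 of 20 settings tried, DESeq2 among them.

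Talazoparib and olaparib were compared at matched hours, with their concentrations differing. None of the 8 genes was called for the difference, nor was any of the 17218 genes (0%) by edgeR, with 354 genes at an unadjusted p under 0.05 and 1 gene called by DESeq2. The difference of talazoparib minus olaparib was 0.57 for *KLF4* (95% interval -0.48 to 1.62), 0.48 for *EGR2* (-0.27 to 1.23) and *ID2* (-0.73 to 1.68), and 0.28 for *EGR1* (-0.17 to 0.72). It was 0.41 for *NR4A1* (-0.12 to 0.94), 0.17 for *SPI1* (-0.29 to 0.62), 0.05 for *IRF8* (-0.51 to 0.61) and -0.13 for *GFI1* (-0.38 to 0.13). At 48 h the single libraries of talazoparib were above those of olaparib for the 7 genes other than *GFI1*, by log2 ratios between 0.18 for *IRF8* and 1.25 for *EGR2*, which is a comparison of 2 libraries.

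**Figure D2:**
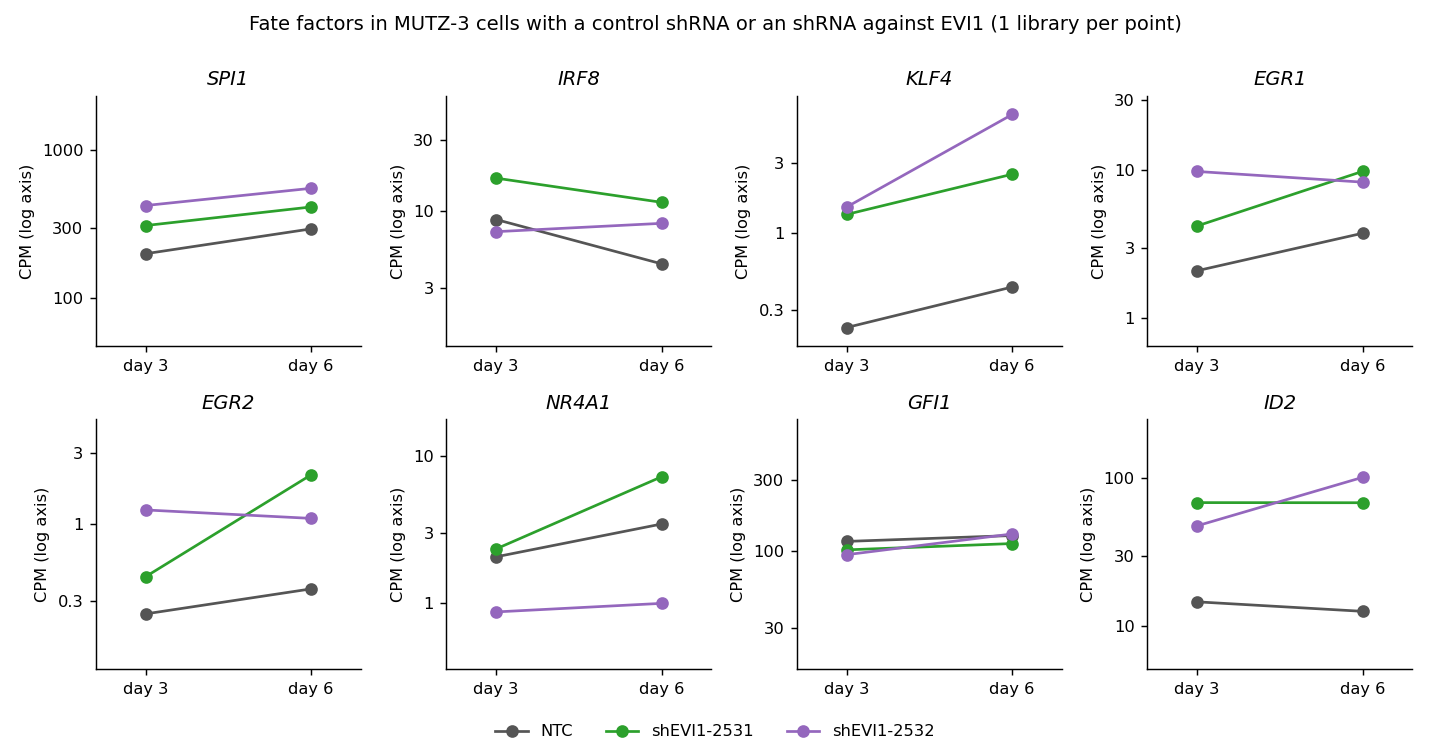
Level of each gene in CPM (log axis, the same fold range in every panel) at day 3 and day 6 in cells with NTC, shEVI1-2531 or shEVI1-2532, with 1 library per point. Both shRNAs lie above NTC for SPI1, KLF4, EGR1, EGR2 and ID2, while NR4A1 lies below NTC with shEVI1-2532 only.

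After *EVI1* knockdown, *ID2*, *KLF4*, *EGR2*, *EGR1* and *SPI1* rose with each of the 2 shRNAs. *IRF8* rose with shEVI1-2531 and *NR4A1* fell with shEVI1-2532. This made 6 of 8 genes called with shEVI1-2532, where 41.1% of 18606 genes were called, and 6 of 8 with shEVI1-2531, where 17.4% were. The median log2 fold changes of the 8 were 1.37 and 1.18, beside 0.00 and 0.01 over all genes. The shRNA and NTC libraries did not overlap for *SPI1*, *KLF4*, *EGR1*, *EGR2* and *ID2*, 5 of 8, against 30.2% of all genes.

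*ID2* was at 14.6 and 12.6 CPM with NTC at days 3 and 6. It was at 68.6 and 68.4 CPM with shEVI1-2531 and at 47.8 and 102 CPM with shEVI1-2532. All 4 knockdown libraries were at least 3 times their NTC library. The log2 fold changes were 2.32 ± 0.25 with shEVI1-2531 (SE, adjusted p = 0.000112) and 2.40 ± 0.26 with shEVI1-2532 (adjusted p = 2.0e-05), and *ID2* was called in 15 of 15 settings for each shRNA. The antisense gene ID2-AS1 overlaps *ID2* and held 8 to 139 counts per library.

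*KLF4* was at 0.230 and 0.432 CPM with NTC, from 29 and 56 counts. It was at 1.34 and 2.50 CPM with shEVI1-2531 and at 1.501 and 6.349 CPM with shEVI1-2532. At day 6 shEVI1-2532 exceeded its control 14.7 times, the highest ratio among all treated libraries of the 8 genes. The log2 fold changes were 2.56 ± 0.35 (SE, adjusted p = 0.000455) and 3.37 ± 0.35 (adjusted p = 1.6e-05), and their difference was not called (0.81 ± 0.31, adjusted p = 0.0787).

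*SPI1* was at 200 and 295 CPM with NTC. It was at 311 and 415 CPM with shEVI1-2531 and at 424 and 555 CPM with shEVI1-2532. At each day the order NTC, shEVI1-2531, shEVI1-2532 was the same. The log2 fold changes were 0.56 ± 0.12 (SE, adjusted p = 0.00882) and 1.00 ± 0.13 (adjusted p = 6.2e-05), and the second was higher by 0.43 ± 0.12 (adjusted p = 0.0241). The call with shEVI1-2531 was lost with scaling to library totals (log2 fold change 0.392). The difference was called in 8 of 13 settings, and was lost with library totals, without the day term, without the day 3 library of either shRNA and without the shEVI1-2531 library of day 6. *EVI1* itself was lower with shEVI1-2532 than with shEVI1-2531, with a log2 difference of -1.70 ± 0.20.

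*EGR1* was at 2.10 and 3.77 CPM with NTC. It was at 4.22 and 9.88 CPM with shEVI1-2531 and at 9.85 and 8.34 CPM with shEVI1-2532. At day 3 the higher level was that of shEVI1-2532, at day 6 that of shEVI1-2531. The log2 fold changes were 1.23 ± 0.30 (SE, adjusted p = 0.0138) and 1.74 ± 0.30 (adjusted p = 0.000682). They were 0.714 without the shEVI1-2531 library of day 6 and 1.056 without the shEVI1-2532 library of day 3, the second still called.

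*EGR2* crossed in the same way, at 0.246 and 0.363 CPM with NTC, 0.438 and 2.15 CPM with shEVI1-2531 and 1.24 and 1.09 CPM with shEVI1-2532. Its log2 fold changes were 1.92 ± 0.49 (SE, adjusted p = 0.0192) and 2.03 ± 0.49 (adjusted p = 0.00595). They were 0.618 without the shEVI1-2531 library of day 6 and 1.123 without the shEVI1-2532 library of day 3. The calls of *SPI1*, *EGR1* and *EGR2* with shEVI1-2531 were lost without the NTC library of day 3, those of *EGR1* and *EGR2* without the shEVI1-2531 library of day 6 and that of *SPI1* without the shEVI1-2531 library of day 3. *EGR2* was also lost without the NTC library of day 6 for each shRNA, and for shEVI1-2532 without its library of day 3.

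*NR4A1* separated the shRNAs. It was at 2.07 and 3.45 CPM with NTC, at 2.34 and 7.20 CPM with shEVI1-2531 and at 0.876 and 1.00 CPM with shEVI1-2532. Both shEVI1-2532 libraries lay below both NTC libraries, whereas the shEVI1-2531 library of day 6 lay above them. The log2 fold change was -1.495 ± 0.322 with shEVI1-2532 (SE, adjusted p = 0.00293) and 0.67 ± 0.30 with shEVI1-2531 (adjusted p = 0.152). The difference of -2.17 ± 0.33 passed the test (adjusted p = 0.000678) and was called in 13 of 13 settings.

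*IRF8* also differed between the shRNAs, with levels of 8.72 and 4.37 CPM for NTC, 16.6 and 11.4 CPM for shEVI1-2531 and 7.21 and 8.21 CPM for shEVI1-2532. NTC at day 6 was at 50.1% of its day 3 level, and shEVI1-2532 was below NTC at day 3 and above it at day 6. The log2 fold change was 1.13 ± 0.25 with shEVI1-2531 (SE, adjusted p = 0.00813) and 0.33 ± 0.25 with shEVI1-2532 (adjusted p = 0.320). The difference of -0.80 ± 0.25 passed the test (adjusted p = 0.0328). The call with shEVI1-2531 was lost without the NTC library of day 6, and the difference without the library of day 3 of either shRNA. The difference was -0.358 without the shEVI1-2532 library of day 3 and -1.317 without that of day 6. With *NR4A1* and *SPI1* this made 3 of 8 genes that differed between the shRNAs, against 24.2% of all genes.

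*GFI1* was at 116 and 127 CPM with NTC, 102 and 112 CPM with shEVI1-2531 and 94.3 and 130 CPM with shEVI1-2532. The ranges overlapped, and neither shRNA passed the test (log2 fold changes of -0.19 ± 0.14 and -0.13 ± 0.14, SE, adjusted p = 0.391 and 0.479). With scaling to library totals, the median of all genes was -0.30 with shEVI1-2532 and -0.16 with shEVI1-2531, against 0.00 and 0.01 with TMM. Under that scaling *GFI1* was called lower with shEVI1-2532 (adjusted p = 0.0203), and the ratio of its day 6 library turned from 0.04 to -0.31.

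**Figure D3:**
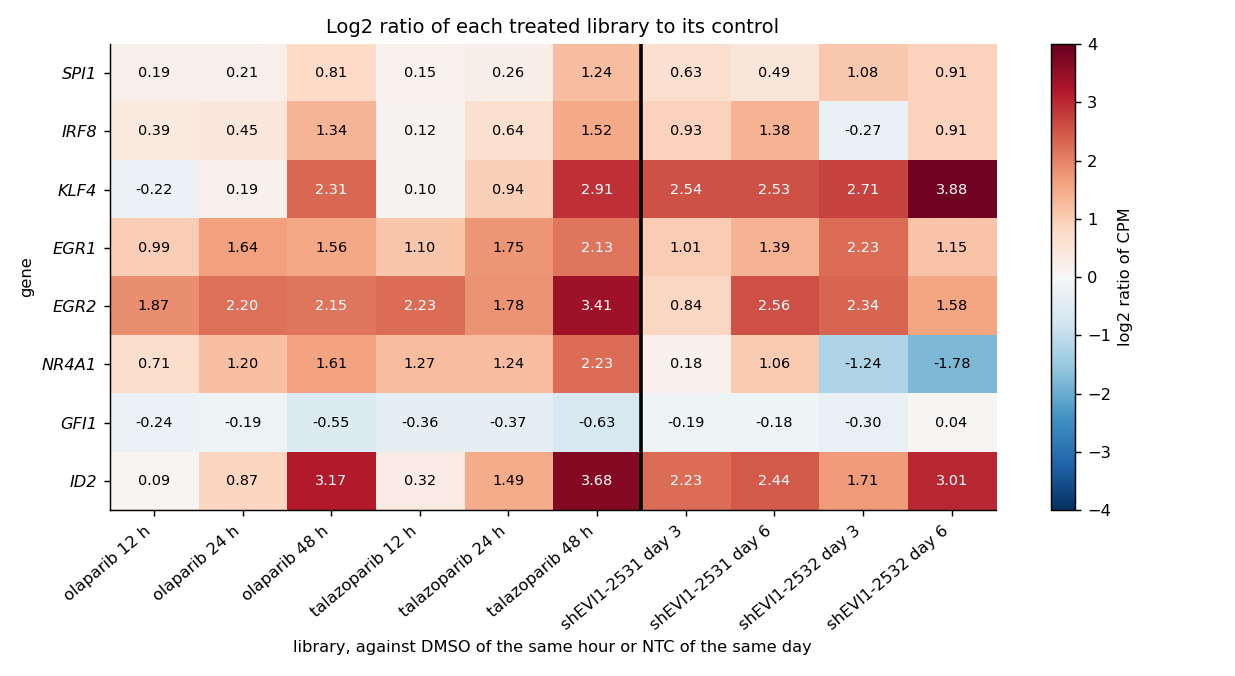
Log2 ratio of CPM of each treated library to DMSO of the same hour or NTC of the same day, with genes in rows, libraries in columns and red for higher. ID2 and KLF4 darken from 12 to 48 h with both inhibitors, EGR1 and EGR2 are red in all 10 columns, and NR4A1 is blue in the shEVI1-2532 columns.

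Over the 10 pairs of treated and control libraries, *SPI1*, *EGR1*, *EGR2* and *ID2* were higher in all of them. *KLF4* and *IRF8* were higher in 9, with the exception of olaparib at 12 h for *KLF4* and shEVI1-2532 at day 3 for *IRF8*. *NR4A1* was higher in 8 and *GFI1* in 1, or in none when scaled to library totals. The pairs share controls, with 1 DMSO library per hour and 1 NTC library per day, so these counts are a description.

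**Figure D4:**
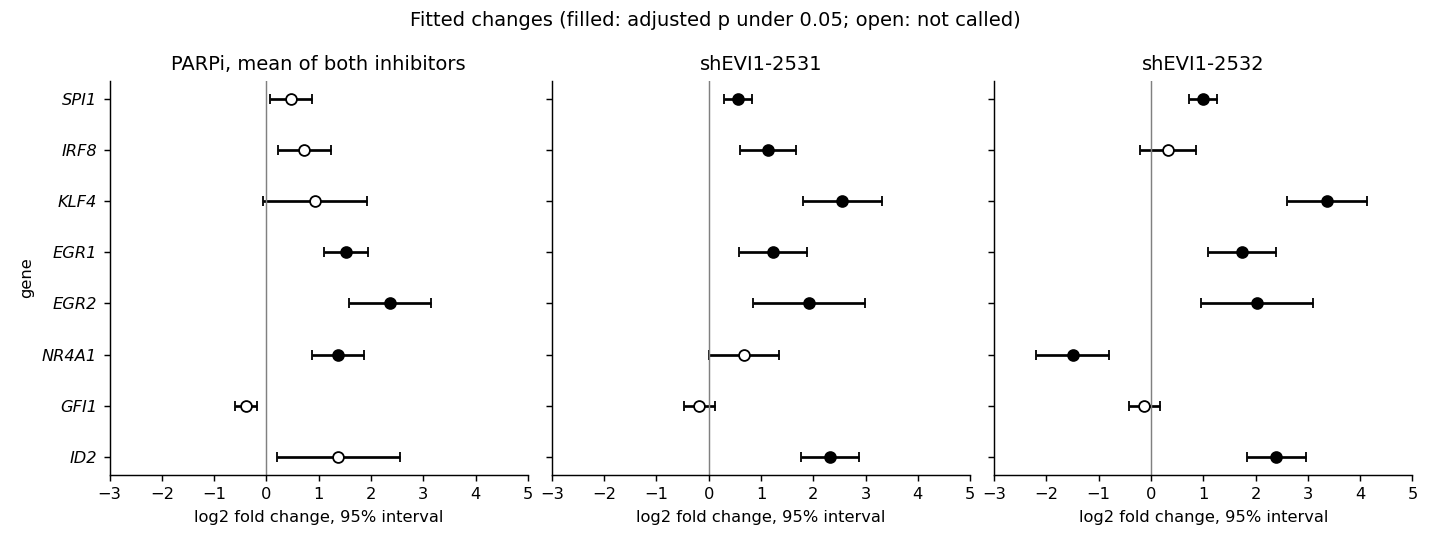
Fitted log2 fold change of each gene with its 95% interval for PARPi (mean of both inhibitors), shEVI1-2531 and shEVI1-2532, with filled points for an adjusted p under 0.05. EGR1 and EGR2 are filled and to the right of 0 in all 3 panels, and NR4A1 is filled on the right for PARPi and on the left for shEVI1-2532.

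The genes whose 10 log2 ratios were most like those of each factor were found by the root mean square (RMS) difference among 8716 or 8717 other genes with a mean log2 CPM above 3 in both experiments. For *EGR1* these were BTG2 (RMS difference 0.35), INKA2 (0.40) and NOTCH1 (0.44), and for *EGR2* CDKN1A (0.57), BTG2 (0.59) and TP53INP1 (0.73). BTG2, CDKN1A and TP53INP1 are known targets of p53. For *ID2* they were ITGB7 (0.31), ALOX5 (0.43) and RAB20 (0.47), for *KLF4* HP (0.50), P2RY13 (0.53) and ADAMDEC1 (0.55), and for *IRF8* ENTPD7 (0.24), PTAFR (0.30) and RASSF2 (0.30). For *NR4A1* they were DTX4 (0.50), ITGA2B (0.61) and FHDC1 (0.71). The small ratios of *SPI1* and *GFI1* were matched most closely, by SLC66A1 (0.09), GRB2 (0.10) and KIAA0930 (0.10) and by EIF2S2 (0.11), ARV1 (0.11) and MEAF6 (0.12).

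**Figure D5:**
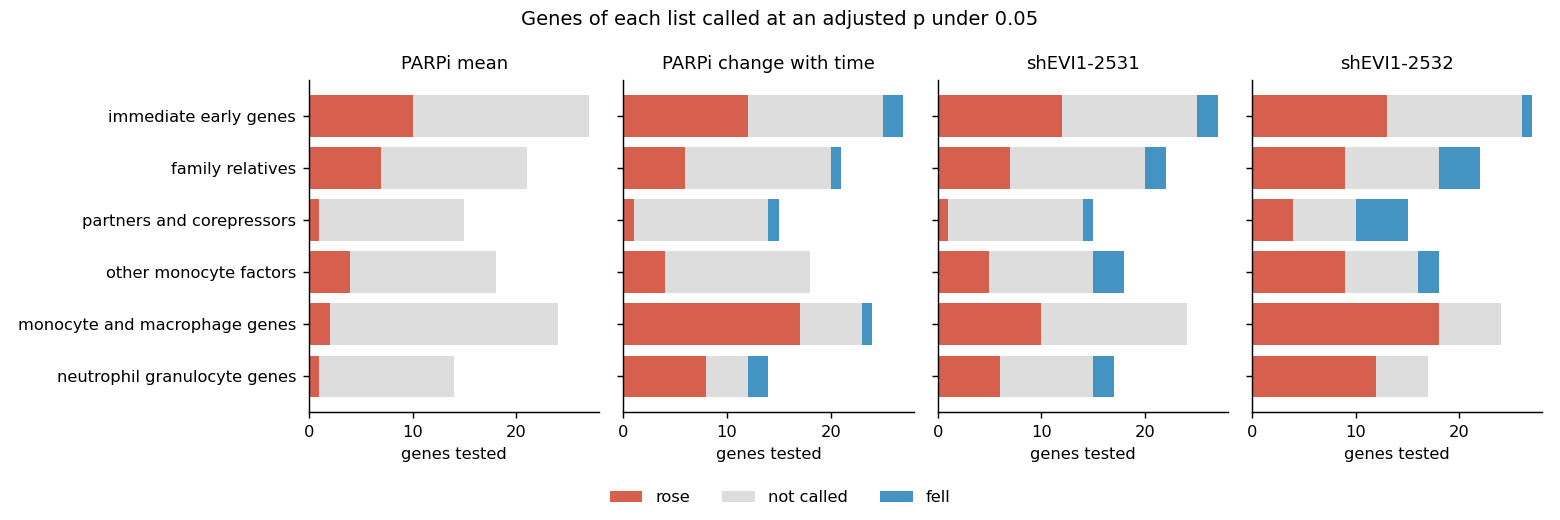
Number of tested genes of 6 lists that rose, fell or were not called at an adjusted p under 0.05, for the mean effect of PARPi, its change with time, shEVI1-2531 and shEVI1-2532. Monocyte and macrophage genes rose in 17 of 24 tested for the change with time and in 18 of 24 with shEVI1-2532, and none of them fell with either shRNA.

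Counts over gene lists are read beside those over all genes tested. Of all genes, 3.16% rose and 1.01% fell as the mean of PARPi, and 10% rose and 9.82% fell with time. With shEVI1-2531, 9.49% rose and 7.9% fell, and with shEVI1-2532, 21.2% rose and 19.9% fell.

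The wider list of immediate early genes, apart from the 8 factors, held 10 of 27 genes that rose with PARPi on average and none that fell, where 4.17% of all genes were called, with a median log2 fold change of 0.69. BTG2, an antiproliferative gene, rose by 1.79 ± 0.22 (adjusted p = 0.0131) and IER5 by 0.87 ± 0.13 (adjusted p = 0.0230). With shEVI1-2531, 12 rose and 2 fell, where 17.4% of all genes were called, and with shEVI1-2532, 13 rose and 1 fell, where 41.1% were. BTG2 rose with both shRNAs, by 1.33 ± 0.19 and 2.07 ± 0.19, JUN rose with shEVI1-2532 by 1.80 ± 0.30, and IER2 fell with it by 0.60 ± 0.19.

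Among 25 relatives of the 8 factors from the same gene families, 21 were tested for PARPi, and 7 rose and none fell on average. The 7 include EGR4, which was at or below the level of 3 counts in every DMSO library. IRF1 rose by 0.80 ± 0.14 (adjusted p = 0.0317) and IRF7 by 0.69 ± 0.13 (adjusted p = 0.0397), both of them activators of interferon genes. With the shRNAs 22 were tested, of which 7 rose and 2 fell with shEVI1-2531 (17.4% of all genes called) and 9 rose and 4 fell with shEVI1-2532 (41.1%). The 4 include SPIB, at 0.158 and 0.0926 CPM with NTC and at most 0.0899 CPM with the shRNAs. It passed the filter on low counts only through the NTC libraries, so its value is no evidence of a fall. Both measured relatives of *ID2* rose. ID3 was at 1.54 and 2.43 CPM with NTC, at 38.2 and 36.5 CPM with shEVI1-2531 and at 10.9 and 73.4 CPM with shEVI1-2532, and ID1 was at 12.1 and 16.8 CPM, 71.6 and 66.3 CPM, and 22.6 and 77.5 CPM. ID3 rose by 4.38 ± 0.51 and 4.10 ± 0.52 and ID1 by 2.33 ± 0.33 and 1.65 ± 0.32. GFI1B, the erythroid and megakaryocytic relative of *GFI1*, fell by 1.81 ± 0.21 with shEVI1-2532 (adjusted p = 3.9e-05), had a log2 fold change of -0.17 ± 0.21 with shEVI1-2531 that was not called, and rose by 0.67 ± 0.10 with PARPi (adjusted p = 0.0230).

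The other members of the EGR and NR4A families were set beside *EGR2* and *NR4A1* after their values were seen, so their values are a description. The log2 fold changes with PARPi were 1.84 ± 0.27 for EGR3, 2.87 ± 0.45 for EGR4, 1.22 ± 0.21 for NR4A2 and 2.25 ± 0.44 for NR4A3. With shEVI1-2531 they were 1.82 ± 0.49, 0.76 ± 0.70, 0.33 ± 0.31 and 1.92 ± 0.34, and with shEVI1-2532 they were -0.26 ± 0.48, 1.60 ± 0.67, -0.40 ± 0.32 and -0.13 ± 0.37, in the same order. EGR3, NR4A2 and NR4A3 had lower values with shEVI1-2532 than with shEVI1-2531, as *NR4A1* did, and EGR4 had a higher one. EGR4 was at 0.0147, 0.0397 and 0.0305 CPM with DMSO at 12, 24 and 48 h, at or below the level of 3 counts. In the PARPi experiment it passed the filter on low counts only through the inhibitor libraries, so its value there is no evidence of a rise.

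Of 15 partners and corepressors of the factors, 1 rose and none fell with PARPi on average, 1 rose and 1 fell with shEVI1-2531, where 17.4% of all genes were called, and 4 rose and 5 fell with shEVI1-2532, where 41.1% were. KDM1A, the demethylase that GFI1 recruits, fell by 0.94 ± 0.13 with shEVI1-2532, while RCOR1 of the same list rose by 0.81 ± 0.15. TCF12, an E protein that ID proteins bind, fell by 0.49 ± 0.15 and 1.13 ± 0.16 with shEVI1-2531 and shEVI1-2532. RXRA, a nuclear receptor that pairs with NR4A1, rose by 0.64 ± 0.13 with shEVI1-2531. Of 18 tested among the other monocyte factors, 4 rose and none fell with PARPi on average. BHLHE40 rose by 1.12 ± 0.20 and RELB by 1.03 ± 0.20, and RELB fell by 0.98 ± 0.24 with shEVI1-2531. The vitamin D receptor VDR, which promotes monocyte differentiation, rose by 0.98 ± 0.17 and 1.69 ± 0.17 with the shRNAs, and TFEC, a macrophage factor of the MITF family, by 1.242 ± 0.208 and 1.999 ± 0.212. These lists share genes, since EGR3, KLF2, KLF6, KLF10, NR4A2 and NR4A3 are both relatives and immediate early genes. JUN is in the list of partners and corepressors and in that of immediate early genes.

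Genes that mark monocytes and macrophages rose with time for PARPi in 17 of 24 tested and fell in 1, while 2 rose as the mean over time, against 10% and 3.16% of all genes that rose. CD14, the monocyte coreceptor for lipopolysaccharide, had a slope of 2.12 ± 0.15 and S100A8, a calcium-binding protein of myeloid cells, of 1.66 ± 0.14. With shEVI1-2531, 10 rose, and with shEVI1-2532, 18 rose, with none falling, against 9.49% and 21.2% of all genes that rose. CD14 rose by 4.60 ± 0.25 and 5.14 ± 0.25 and LYZ, which encodes lysozyme, by 2.59 ± 0.17 and 4.85 ± 0.19.

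Neutrophil granulocyte genes were not lower as a group where the monocyte genes were higher. Of 14 tested for PARPi, 8 rose with time and 2 fell, with slopes of 1.89 ± 0.15 for the gelatinase MMP9, 1.88 ± 0.15 for S100A12 and -0.86 ± 0.13 for MPO, the enzyme of primary granules. With shEVI1-2532, 12 of 17 rose and none fell, with MMP9 higher by 5.98 ± 0.33 and PRTN3, a serine protease of primary granules, by 3.17 ± 0.17. With shEVI1-2531, 6 rose and 2 fell. MMP9 rose by 2.97 ± 0.29, while ELANE and CTSG, also serine proteases of primary granules, fell by 2.81 ± 0.22 and 0.69 ± 0.21.

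Markers of other cell types were followed in the same libraries. The summed level of 12 dendritic and Langerhans cell markers was 12.5 to 31.2 CPM with DMSO. It was 22.0 to 85.2 CPM with olaparib and 25.6 to 67.5 CPM with talazoparib. On average 4 of 10 tested rose with PARPi, against 3.16% of all genes. Among those tested, FCER1A was at 0.029, 0.013 and 0.061 CPM and LAMP3 at 0.13, 0.053 and 0.20 CPM with DMSO. Both passed the filter on low counts only through the inhibitor libraries, so their values there are no evidence of a rise. XCR1 was at or near 0 throughout, and 3 of 11 tested rose and 2 fell with shEVI1-2531 and 4 rose and 2 fell with shEVI1-2532. CD1C rose by 1.99 ± 0.24 and 2.64 ± 0.25 with the shRNAs, whereas CLEC9A was at 12.1 and 8.86 CPM with NTC, 4.84 and 2.42 CPM with shEVI1-2531 and 5.10 and 1.64 CPM with shEVI1-2532. Megakaryocyte markers summed to 86.6 to 107 CPM with DMSO and to 124 to 242 and 139 to 277 CPM with the inhibitors. They summed to 79.4 to 160 CPM with NTC, 123 to 143 CPM with shEVI1-2531 and 36.2 to 59.3 CPM with shEVI1-2532. Most of this was ITGA2B, and PF4 was at most 0.0899 CPM. The progenitor markers summed to 1976 to 3172 CPM with DMSO, 1435 to 1910 CPM with olaparib and 968 to 2224 CPM with talazoparib, with a median log2 fold change of -0.35 over the 7 tested for the mean effect of PARPi and no call by edgeR, while 4 of 7 fell with time. They summed to 3626 to 3849 CPM with NTC, 3726 to 5176 CPM with shEVI1-2531 and 2145 to 3186 CPM with shEVI1-2532. Most of each of these sums, in both experiments, was MPO, which is also in the list of neutrophil granulocyte genes. At days 3 and 6 MPO was at 3336 and 2722 CPM with NTC, 3393 and 4827 CPM with shEVI1-2531 and 1913 and 2927 CPM with shEVI1-2532. Of the 8 progenitor markers, 2 rose and 3 fell with shEVI1-2531, and 1 rose and 5 fell with shEVI1-2532. CD34 fell by 2.43 ± 0.28 with shEVI1-2531 and fell by 6.78 ± 0.34 with shEVI1-2532, and CD33 rose by 0.47 ± 0.13 and 0.88 ± 0.13 in the same order. KIT rose by 0.71 ± 0.20 with shEVI1-2531. With shEVI1-2532 KIT was at 11.5 and 9.45 CPM, beside 34.0 and 18.7 CPM with NTC. Erythroid markers summed to 20.0 to 21.2 CPM with DMSO, 23.0 to 40.9 CPM with olaparib and 26.9 to 50.5 CPM with talazoparib, with no overlap between treated and DMSO libraries, and 1 of 3 tested, GATA1, rose with PARPi. B cell markers lay between 12.3 and 24.9 CPM, and T cell and NK cell markers, mostly CD4, at 160 to 187 CPM with DMSO, 181 to 248 and 216 to 312 CPM with the inhibitors, and 199 to 316 CPM in the knockdown experiment, with HBA2, MS4A1 and KLRD1 at 0 in every library. The part of these cells in the results on the 8 factors was not tested.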

How the data were processed

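RNA was extracted from MUTZ-3 cells with a column kit, and libraries were prepared with a stranded mRNA kit and sequenced as paired reads. The submitters' processing notes name STAR, Picard, featureCounts, hg38 and GRCh38 without role or version, and the annotation and strand setting are not given in the sources used here. The authors deposited raw counts per gene and TPM values for each of 16 libraries. The deposited TPM equal counts divided by the whole gene span, introns included (largest difference 5.1e-11), and served only for this check.

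Counts were tested with edgeR 4.0.16 (R 4.3.3, quasi-likelihood, TMM scaling, Benjamini-Hochberg adjustment over all genes tested, threshold 0.05). Genes needed 10 counts in 3 of the 9 PARPi libraries or in 2 of the 6 knockdown libraries. The PARPi fit had the hour as a factor and a coefficient per inhibitor (4 residual df). The change with time added slopes on log2 hours (2 residual df), and the knockdown fit had the day as a factor and a coefficient per shRNA (2 residual df). The untreated library entered no test. Nothing states that libraries came from separate cultures, so the p-values may measure technical spread. Intervals of single-library ratios are exact binomial (Clopper-Pearson) at 95% and, like the floor of 3 counts, cover counting error only. The likeness of genes used CPM with a pseudocount of 0.5. Alternatives were DESeq2 1.42.0, other scalings and filters, leaving out libraries or hours, and other model terms.

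The 8 genes and all gene lists were chosen with earlier results of these data known. Of each list, up to 2 genes per direction and comparison were named, those that changed most among genes whose mean log2 CPM exceeded 3, and the change with time was added to this rule after its values were seen. FOSB, SPIB, CLEC9A, FCER1A, LAMP3 and the single cell type markers at or near 0 were named with their values known.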

Additional observations from a re-analysis of the deposited data

Results flagged for a closer look

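The effect of PARPi differed between time points, by the test of its slope on log2 hours, for 5 of the 8 factors. Of all genes, 19.8% were called by this test, which estimated 1 spread for all genes. Without the DMSO library of 48 h only *ID2* of the 8 stayed called, beside 258 of 17050 genes. With all libraries, the slope per doubling of time was 1.608 for *ID2*, 1.328 for *KLF4*, 0.593 for *IRF8*, 0.426 for *SPI1* and 0.396 for *EGR1*. The effects of the 2 shRNAs differed, by the test of shEVI1-2532 minus shEVI1-2531, for 3 of the 8 factors, against 24.2% of all genes. The log2 difference was -2.170 for *NR4A1*, -0.805 for *IRF8* and 0.435 for *SPI1*.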

How the results depend on the processing

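No paired analysis was possible because the labels carry no replicate numbers, with 1 library per condition. The tests are instead matched by hour or day, and the fits without the hour or day term are their unmatched versions. With 1 library per condition, the calls among the 8 factors after PARPi rest on few degrees of freedom. For the mean effect of PARPi, 3 were called, against 5 with DESeq2, 7 without the filter, 6 without the 12 h libraries, 0 without the 24 h libraries or the hour term, 8 with slopes on time, and 0 to 7 when 1 library was left out. Over all genes, 718 of 17218 were called, against 3438 with DESeq2 and 3728 of 33282 without the filter. The count was 3796 of 17412 without the 12 h libraries, 0 without the 24 h libraries and 16 without the hour term. With slopes on time, where 1 spread was estimated for all genes, it was 6804, and it was 6 to 4720 when 1 library was left out. For olaparib, 1 was called, against 3 with DESeq2 or no filter, 4, 0 and 2 without the 12, 24 or 48 h libraries, 0 without the hour term, and 0 to 5 when 1 library was left out. Over all genes, 110 were called, against 672 with DESeq2, 977 without the filter and 0 without the hour term. The count was 946, 0 and 315 without the 12, 24 or 48 h libraries, and 0 to 1764 when 1 library was left out. For talazoparib, 3 were called, against 6 with DESeq2, 8 without the filter, 7 and 0 without the 12 or 24 h libraries, 0 without the hour term, and 0 to 8 when 1 library was left out. Over all genes, 688 were called, against 3740 with DESeq2, 3876 without the filter and 12 without the hour term. The count was 3982 and 0 without the 12 or 24 h libraries, and 0 to 5005 when 1 library was left out. For the change with time, 5 were called, against 3 with library totals and 1 to 5 when 1 library was left out. Over all genes, 3412 were called, against 3515 with library totals and 258 to 3817 when 1 library was left out. For shEVI1-2532, 6 were called, against 2 with pooled shRNAs. For shEVI1-2531, 6 were called, against 1 without the day term, 2 with pooled shRNAs and 3 to 6 when 1 library was left out. For the difference between shRNAs, 3 were called, against 1 without the day term. Over all 18606 genes, 7648 were called for shEVI1-2532 and 3235 for shEVI1-2531, against 308 with pooled shRNAs. Without the day term 565 were called for shEVI1-2531. The difference between shRNAs was called for 4505 genes, against 921 without the day term. The causes of these shifts were not tested.

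Directions turned in no tested value that was called. Talazoparib minus olaparib turned for *IRF8* without 24 h (-0.013) or 48 h (-0.031) and for *EGR2* without 48 h (-0.030). The effect of shEVI1-2531 on *NR4A1* was -0.062 with pooled shRNAs. The difference between shRNAs turned with library totals for *EGR2* (-0.014), *GFI1* (-0.078) and *ID2* (-0.067), and for *EGR2* without the day term (-0.164). The ratio of *GFI1* with shEVI1-2532 at day 6 was -0.313 with library totals. When 1 library was left out, talazoparib minus olaparib ranged from -0.099 to 0.310 for *SPI1*, -0.197 to 0.259 for *IRF8*, -0.047 to 0.845 for *EGR2* and -0.032 to 0.951 for *ID2*. The change with time ranged from -0.210 to 0.936 for *EGR2* and -0.308 to 0.023 for *GFI1*, and the effect of shEVI1-2532 from -0.160 to 0.798 for *IRF8* and -0.291 to 0.040 for *GFI1*. The difference between shRNAs ranged from -0.150 to 1.127 for *EGR1*, -0.813 to 1.309 for *EGR2*, -0.109 to 0.223 for *GFI1* and -0.573 to 0.628 for *ID2*. Of 776 values of single genes under alternatives, 645 kept direction and side of the threshold.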
